A study of Mus musculus with 10 samples.

Results

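The calcium release complex of the right atrium is described here through 10 genes, chosen by name for their roles as release channels, calsequestrins and junctional proteins: Ryr2, Itpr2, Casq1, Casq2, Trdn, Asph, Hrc, Jph1, Jph2 and Fkbp1b. All 10 are among the 23337 genes of the deposited table, and 9 of them had enough reads to be tested together with 13084 genes in all, Fkbp1b being the exception.

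In heart muscle, calcium entering through the L-type channel of the cell membrane opens ryanodine receptors in the facing membrane of the sarcoplasmic reticulum, and the calcium released through them drives contraction. Inside the reticulum, calsequestrin stores calcium and is tied to the ryanodine receptor by triadin and junctin, while junctophilins hold the facing membranes together and the FKBP12.6 protein binds the channel on its cytosolic side. Mutations of the ryanodine receptor, of calsequestrin and of triadin are known causes of inherited arrhythmia triggered by adrenergic stimulation.

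RNA of the right atria of 10 mice was sequenced, 1 library per mouse, to find which genes change in the adult atrium once Tbx5, a T-box transcription factor of the heart, is removed. The 4 mice labelled control (M1, M2, F1 and F2) were compared with 6 mice labelled for R26Cre driven removal of Tbx5, called Tbx5 mutant here (F1 to F3 and M1 to M3), the letter of the name being the labelled sex. A Cre recombinase induced by tamoxifen and driven by the R26 promoter, which is active in all cell types, was used to cut out exon 3 of Tbx5, so that removal was not limited to heart muscle. Tamoxifen was injected at 0.167 mg per day for 3 days, and atrial appendages were taken 1 week later. The labels give a mixed strain and an age of 8 to 10 weeks, while their protocol text gives 6 to 8 weeks. For the animals of its other atrial libraries the study describes controls that carry R26CreERT2 and mutants that carry Tbx5 fl/fl and R26CreERT2. The labels of these libraries do not say which alleles the mice labelled control carried, nor whether they received tamoxifen, and no source says whether mice shared a litter or a day of dissection.

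Counts summed to between 5703775 and 7095141 per library, and 3484550 of those of mutant M3 lay outside Rn45s, a ribosomal RNA precursor that took 38.9% of its counts and at most 1.49% of those of any other library. The targeted gene itself went against the labels: the mice labelled control had 184 to 224 CPM of Tbx5 (CPM being read counts scaled to library size by the TMM method of edgeR), and those labelled Tbx5 mutant had 275 to 475 CPM. Its log2 fold change was 0.94 (standard error 0.15), with an adjusted p of 0.000495 by the quasi-likelihood test of edgeR, adjusted after Benjamini and Hochberg over all genes tested, which is the edgeR adjusted p given throughout. With the mice labelled male only, it was 0.70 (edgeR adjusted p = 0.0549). These counts cover the whole gene and so do not show whether exon 3 was cut out. Xist, made from the inactive X chromosome, had 7850 or more reads in the control libraries labelled male and at most 14 in those labelled female. Ddx3y, a gene of the Y chromosome, had 0 reads in control M1 and M2, 1319 in F1 and 1124 in F2. Both genes thus went against the labelled sex of every control library, while the 6 mutant libraries had the Xist and Ddx3y reads of their labelled sex. A fit to 1 labelled sex alone therefore sets control and mutant libraries with unlike Xist and Ddx3y reads against each other. The names control mice and mutant mice below follow the labels, every direction is a direction between the labels, and no value for one labelled sex of the control mice stands for that sex.

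Among the members, the groups differed most at the channel and at its luminal calcium store. Ryr2, which encodes the ryanodine receptor of heart muscle, fell to 31.9% of its control level, while Casq2, the cardiac calsequestrin, rose 1.75-fold and Casq1, the calsequestrin of fast skeletal muscle, rose 9.90-fold from a low level. A call required an edgeR adjusted p under 0.05, a change of over 1.5 times in either direction and a mean normalized signal, as the authors deposited it, of over 1 in the control mice. Of the 9 tested members, 1 was called lower (Ryr2), beside 7.16% of all tested genes, and 2 were called higher (Casq1 and Casq2), beside 8.50%. By adjusted p alone, 2 were lower (Ryr2 and Hrc), beside 15.0% of all tested genes, and 2 were higher, beside 16.3%. In 1 member every mutant mouse lay below every control mouse, beside 11.0% of all tested genes, and in 2 every mutant mouse lay above, beside 11.7%. The median log2 fold change was -0.13 over the 9 tested members and -0.005 over all tested genes. With 9 genes tested, counts of 1 and 2 are close to what these shares of all genes give, so the counts are not a result about the complex as a whole, and its genes are described one by one.

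**Figure D1:**
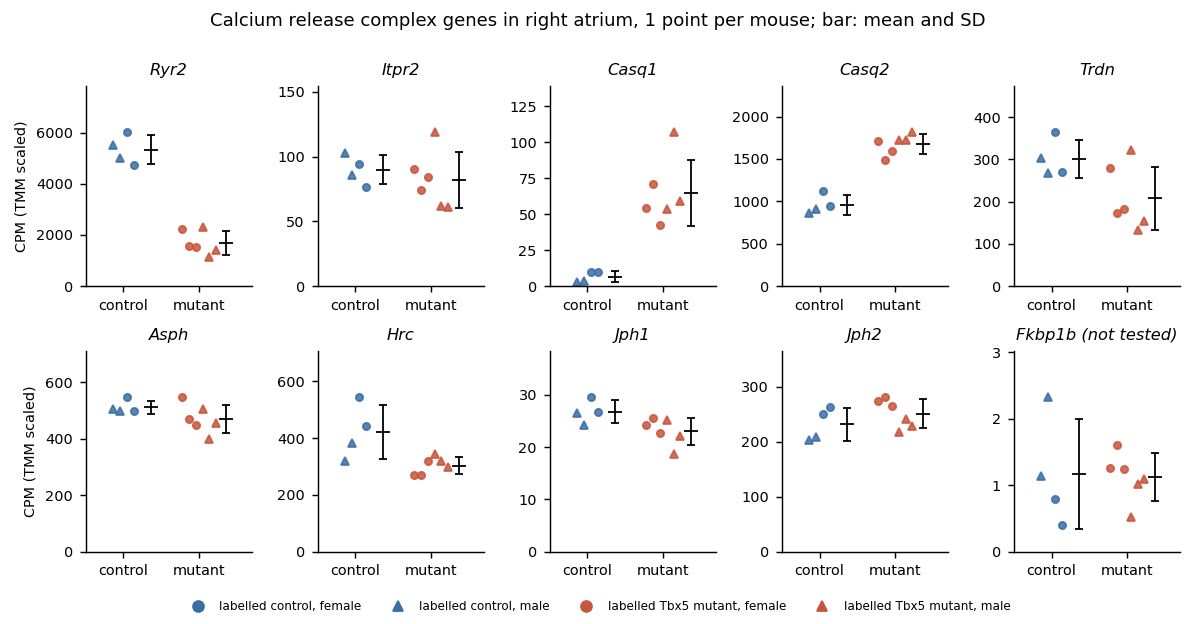
Levels of the 10 genes in each right atrial library, in CPM (TMM scaled, linear axes from 0), with 1 point per mouse, circles for mice labelled female, triangles for mice labelled male, and the mean with its SD beside each group. The groups are apart for Ryr2, which is lower in the mutant mice, and for Casq1 and Casq2, which are higher, and overlap for the other 7 genes.

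Ryr2 lies on the reverse strand of chromosome 13 from 11553102 to 12106945 (GENCODE M21, build GRCm38, the same assembly as mm10), and its longest annotated transcript has 105 exons and 16814 bases. In the control mice Ryr2 was at 5511 CPM in M1, 5029.6 in M2, 6029 in F1 and 4743 in F2. In the mutant mice it was at 1147 to 2318 CPM (median 1546). Even the highest mutant mouse, M1, had less than every control mouse, and the mutant mice fell into a higher pair, F1 at 2231 and M1 at 2318 CPM, and the other 4 at 1147 to 1581. The means were 5328 ± 564 CPM (SD, n = 4) and 1701 ± 469 CPM (SD, n = 6). The log2 fold change was -1.65 (standard error 0.19, edgeR adjusted p = 2.99e-05), and the exact permutation test (two-sided, 210 ways of splitting the 10 mice) gave p = 0.00952, the smallest it can give. The relative spread was wider among the mutant mice, with a coefficient of variation of 27.6% against 10.6%.

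Casq1 lies on the reverse strand of chromosome 1 from 172209894 to 172219868, and its longest transcript has 11 exons and 1847 bases. The control mice had 2.71 CPM of Casq1 in M1, 3.81 in M2, 9.88 in F1 and 9.47 in F2, which is 19 to 70 reads. The mutant mice had 42.1 to 107 CPM (median 56.7), or 218 to 734 reads. The lowest mutant mouse, F3 at 42.1 CPM, was far above the highest control mouse, F1 at 9.88 CPM, and mutant M2 had the most. Within the control mice, M1 and M2 lay below F1 and F2, a gap that has no counterpart in the mutant mice, where both labelled sexes overlapped. The means were 6.47 ± 3.73 CPM (SD, n = 4) and 64.4 ± 22.8 CPM (SD, n = 6), with a log2 fold change of 3.31 (standard error 0.35, edgeR adjusted p = 1.70e-05) and the smallest exact permutation p, 0.00952. It was the largest change in either direction among the 9 tested members.

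Because Casq1 is best known from skeletal muscle, a list of 9 skeletal muscle markers was set beside it. Of the 9, 4 had enough reads to be tested. Of these, 0 were called higher, beside 8.50% of all tested genes, and 1 was called lower, beside 7.16%. It was Atp2a1, the calcium pump of fast skeletal muscle. The summed level of the 9 markers was 16.3 to 25.9 CPM in the control mice and 13.2 to 17.3 CPM in the mutant mice. Myh1, Myh2 and Myh4, the myosin heavy chains that define fast fibres, and Mybpc1 had 3 reads or fewer in all 10 libraries, and Mybpc1 had 0 in each.

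Casq2 spans chromosome 3 from 102086415 to 102146514 on the forward strand, and its longest transcript has 11 exons and 2556 bases. Control M1 had 859 CPM of Casq2, M2 912, F1 1121 and F2 942, while the mutant mice had 1485 to 1819 CPM (median 1719). All mutant mice lay above all control mice, and the mutant mice were close to each other, with a coefficient of variation of 7.03%. The means were 959 ± 114 CPM (SD, n = 4) and 1677 ± 118 CPM (SD, n = 6), the log2 fold change was 0.81 (standard error 0.11, edgeR adjusted p = 0.000159) and the exact permutation p was again the smallest, 0.00952. Most of the calsequestrin reads came from Casq2 in every library: per kb of transcript, Casq1 stood at 0.00437 to 0.0139 of Casq2 in the control mice and at 0.0365 to 0.0859 in the mutant mice.

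The 250 bases before the RefSeq start site are shown for these 3 genes, the ones that differed between the groups, 1 in one direction and 2 in the other. All are from GRCm38.p6 and read 5′ to 3′ along the gene's own strand: Ryr2 from chr13:12106946-12107195 (reverse strand), Casq1 from chr1:172219896-172220145 (reverse strand) and Casq2 from chr3:102086165-102086414 (forward strand). Capitals mark the letters CAGCTG, an E-box, in Casq1 and a match to the MEF2 consensus in Casq2, and Ryr2 holds no match to any sequence searched.
Ryr2: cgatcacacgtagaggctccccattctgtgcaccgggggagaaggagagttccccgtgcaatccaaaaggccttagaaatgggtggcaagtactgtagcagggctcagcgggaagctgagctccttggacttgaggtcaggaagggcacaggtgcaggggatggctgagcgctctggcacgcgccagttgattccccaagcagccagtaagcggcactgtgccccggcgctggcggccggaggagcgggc
Casq1: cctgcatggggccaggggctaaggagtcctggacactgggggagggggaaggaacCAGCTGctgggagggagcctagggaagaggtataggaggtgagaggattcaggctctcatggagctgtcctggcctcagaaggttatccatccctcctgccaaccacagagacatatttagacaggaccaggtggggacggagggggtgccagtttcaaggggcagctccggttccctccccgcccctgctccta
Casq2: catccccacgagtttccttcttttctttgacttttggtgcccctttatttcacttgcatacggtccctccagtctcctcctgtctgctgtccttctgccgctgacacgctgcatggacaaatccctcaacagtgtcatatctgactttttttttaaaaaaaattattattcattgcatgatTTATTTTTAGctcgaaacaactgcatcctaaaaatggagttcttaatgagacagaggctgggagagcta

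RefSeq promoters were found for 7 of the 10 genes, those of Casq1, Casq2, Fkbp1b, Hrc, Itpr2, Jph2 and Ryr2, and were searched on both strands from 250 bases before to 50 bases after the start. T-box factors such as TBX5 bind sequences around AGGTGT. None of the 7 held AGGTGT or the longer AGGTGTNA in that window, beside 13.7% and 3.03% of 32851 promoters. With 7 promoters searched, finding none is close to what these shares give. CAGCTG was found in Casq1 (first letter 195 bases before the start), in Hrc (22 bases before) and in Jph2 (29 bases before the start of one transcript, the same site lying 9 bases before that of another), beside 16.3% of all promoters. The MEF2 consensus was found in Casq2 alone of the 7, with its first letter 69 bases before the start, beside 3.19% of all promoters, and TATAAA was found in none of them, beside 13.6%. The letters do not overlap each other, and the last 3 sequences were chosen after the expression values were known. A match is a match of letters and says nothing of binding, and windows farther from the start were not searched.

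Itpr2 encodes an inositol trisphosphate receptor known from heart muscle cells, a second kind of release channel. In these libraries its relative Itpr1 had more reads, at 178 to 269 CPM in the control mice and 169 to 242 CPM in the mutant mice. Control M1 had 103 CPM of Itpr2, M2 85.7, F1 94.4 and F2 76.6, while the mutant mice ranged from 61.3 to 119 CPM (median 79.1). The groups overlapped, with 1 mutant mouse (M1) above and 3 (F2, M2 and M3) below all control mice. The log2 fold change was -0.13 (standard error 0.16, edgeR adjusted p = 0.565).

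Trdn encodes triadin, which anchors calsequestrin to the ryanodine receptor. Control M1 had 303 CPM of Trdn, M2 267, F1 365 and F2 271, while the mutant mice had 134 to 322 CPM (median 178). Mutants F1 (280.4 CPM) and M1 (322 CPM) lay within the control range, and the other 4, at 134 to 182 CPM, lay below every control mouse. The coefficient of variation was 36.4% among the mutant mice, the widest of the tested members, and 15.0% among the control mice. The log2 fold change was -0.54 (standard error 0.22, edgeR adjusted p = 0.0715), and the exact permutation test gave p = 0.0857. Without mutant F1 it was -0.64 (edgeR adjusted p = 0.0353) and without mutant M1 it was -0.72 (edgeR adjusted p = 0.00946), so that leaving out either mouse of this pair made Trdn a gene called lower.

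Trdn overlaps a gene on the opposite strand, D830005E20Rik, named here after its values were seen. It had 94.8 to 130.2 CPM in the control mice and 26.9 to 86.4 CPM in the mutant mice, and was called lower with a log2 fold change of -1.0 (standard error 0.27, edgeR adjusted p = 0.0129). Mutants F1 and M1 were again the highest of their group, at 86.4 and 84.5 CPM. The exons of the 2 genes share 0 bases in GENCODE M21, and whether the counting used strand is not given in the sources used here, so reads from introns of one could not be told apart from reads of the other.

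Asph, whose locus encodes junctin, the partner of triadin, as well as an enzyme of the reticulum, had 497 to 546 CPM in the control mice and 400.3 to 546 CPM in the mutant mice (median 463). Mutants F1 (546 CPM) and M1 (505 CPM) lay in the control range and the other 4 below it, the same 4 mice as for Trdn. The log2 fold change was -0.12 (standard error 0.10, edgeR adjusted p = 0.375). Counts per gene do not separate the short transcripts that encode junctin from the long ones that encode the enzyme.

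Hrc encodes the histidine-rich calcium binding protein of the reticulum lumen, which binds triadin. Control M1 had 318 CPM of Hrc, M2 384, F1 543 and F2 443, while the mutant mice had 269 to 343 CPM (median 309). The mutant mice were close to each other, the control mice were spread out, and 4 of the 6 mutant mice lay below the lowest control mouse. The log2 fold change was -0.48 (standard error 0.13, edgeR adjusted p = 0.0151), a fold of 1.39 that is under the 1.5 needed for a call, and the exact permutation test gave p = 0.0286. Without control F1, the highest mouse, it was -0.33 with an edgeR adjusted p of 0.0651. With the mice labelled female only, Hrc was called lower at -0.79 (edgeR adjusted p = 0.00226), and with those labelled male only it was at -0.13 (edgeR adjusted p = 0.599).

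The junctophilins bridge the cell membrane and the reticulum, Jph2 being the main one of the heart and Jph1 the main one of skeletal muscle. Jph2 had 204, 209, 250.1 and 264 CPM in control M1, M2, F1 and F2 and 218 to 281 CPM in the mutant mice (median 253). Jph1 had 24.2 to 29.5 CPM in the control mice and 18.6 to 25.5 CPM in the mutant mice (median 23.4). For both genes the groups overlapped, with 3 mutant mice above the control range for Jph2 and 3 below it for Jph1. The log2 fold changes were 0.12 for Jph2 (standard error 0.11, edgeR adjusted p = 0.431) and -0.21 for Jph1 (standard error 0.11, edgeR adjusted p = 0.141). The exact permutation test, which is unadjusted, gave p = 0.276 for Jph2 and p = 0.0381 for Jph1.

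Fkbp1b encodes FKBP12.6, the small subunit that binds the ryanodine receptor. It had 3 to 14 reads in the control mice (0.406 to 2.32 CPM) and 3 to 12 reads in the mutant mice (0.514 to 1.60 CPM), too few to pass edgeR's expression filter. The groups overlapped, and a difference could not be detected at this depth. Its close relative Fkbp1a, which encodes FKBP12, had 34.4 to 54.3 CPM in the control mice and 41.8 to 76.7 CPM in the mutant mice and was not called (log2 fold change 0.42, standard error 0.19, edgeR adjusted p = 0.107).

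Set on the same scale, per kb of the longest transcript, the order of the members differed between the labels in 3 places. In the control mice, Casq2 (375 CPM per kb) and Ryr2 (317) stood first with overlapping ranges, followed by Hrc (175), which was apart from both. Asph (76.5), Trdn (66.8) and Jph2 (55.1) came next, each overlapping its neighbour, and then, apart from them, Itpr2 (7.69), itself apart from Jph1 (5.56), Casq1 (3.50) and Fkbp1b (1.19), whose neighbouring ranges overlapped. In the mutant mice Casq2 stood alone at the top at 656 CPM per kb, Hrc (126), Ryr2 (101), Asph (70.3), Jph2 (59.7), Trdn (46.0) and Casq1 (34.9) followed, each with a range overlapping that of the next, and Itpr2 (7.00) with Jph1 (4.79), whose ranges overlapped, and Fkbp1b (1.15) stood apart below them. Ryr2 thus left the level of Casq2 for that of Hrc, Casq1 left the level of Jph1 for that of Trdn, and Jph2 and Trdn, whose ranges overlapped in both groups, exchanged places. Reads were not counted per transcript, so a gene with shorter transcripts in use would be set too low on this scale.

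**Figure D2:**
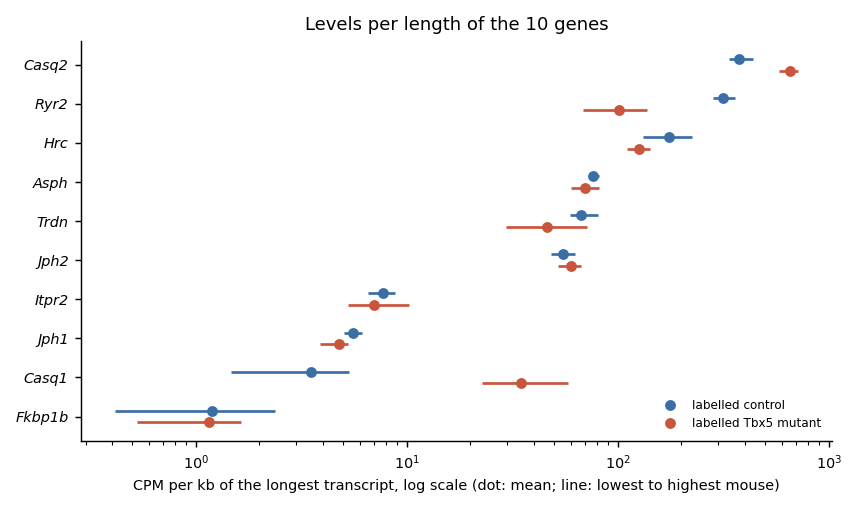
Level of each of the 10 genes per kb of its longest annotated transcript (CPM per kb, log axis), ordered by the control mice. Dots are means and lines run from the lowest to the highest mouse. The control and mutant lines are apart for Ryr2, Casq2 and Casq1, and overlap for the other 7 genes.

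A ratio of 2 genes within a library does not depend on how libraries are scaled. Relative to Ryr2, Casq2 was at a log2 ratio of counts of -2.68 to -2.33 in the control mice and of -0.43 to 0.59 in the mutant mice, a mean difference of 2.50, or 5.64-fold. Per kb of transcript, the control mice had 1.03 to 1.31 Casq2 for each Ryr2 and the mutant mice 4.89 to 9.88. The ratio of Trdn to Ryr2 was the tightest within groups: its SD was 0.08 in the control mice and 0.13 in the mutant mice on the log2 scale, and its mean was 1.08 higher in the mutant mice. The mean log2 ratio to Ryr2 was also higher in the mutant mice for Asph (by 1.56), Hrc (1.23), Jph2 (1.81) and Itpr2 (1.52), and for all 6 of these partners every mutant mouse lay above every control mouse. As these ratios share Ryr2, they are no separate pieces of evidence. The ratio of Fkbp1b to Ryr2 overlapped between the groups.

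Between relatives, the log2 ratio of Casq1 to Casq2 was -8.31 to -6.64 in the control mice and -5.24 to -4.01 in the mutant mice, a mean difference of 2.65, or 6.30-fold. The log2 ratio of Jph1 to Jph2 was -3.31 to -2.94 and -3.69 to -3.11, and that of Fkbp1b to Fkbp1a -6.96 to -4.55 and -6.35 to -5.07, both overlapping between the groups. The calsequestrin pair was thus the only one of these 3 pairs of relatives whose ratios did not overlap.

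**Figure D3:**
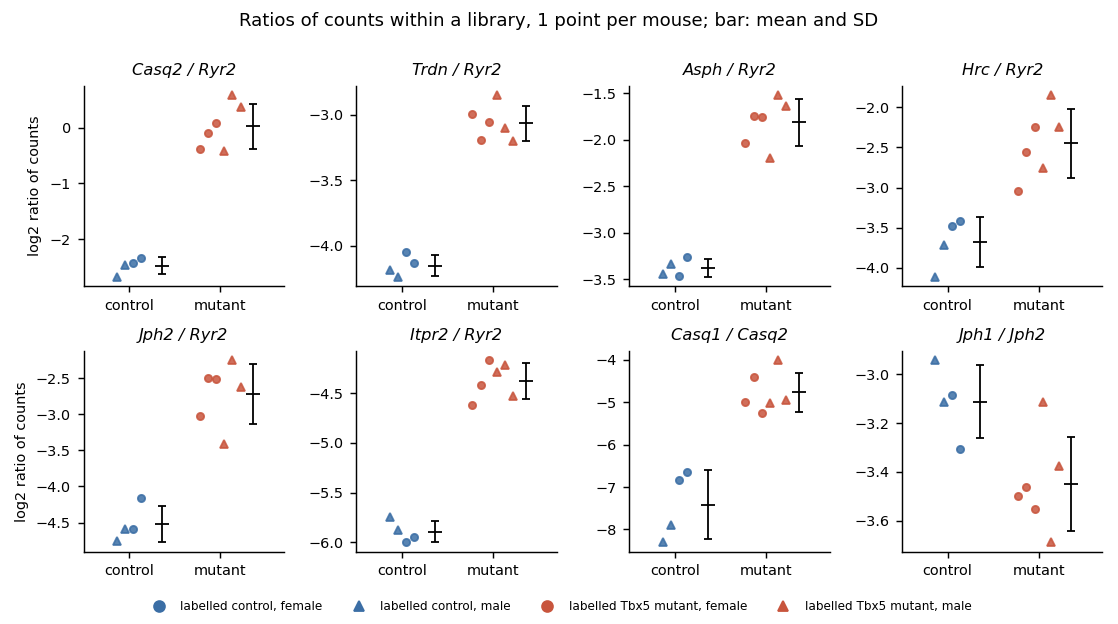
Log2 ratio of read counts of 2 genes within each library, 1 point per mouse (circles labelled female, triangles labelled male), with the mean and SD of each group. The first 6 panels set a member against Ryr2, and in each the mutant mice lie above the control mice, as they do for Casq1 against Casq2, while Jph1 against Jph2 overlaps.

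Within the mutant mice, F1 and M1 had the highest levels of Ryr2, Trdn, Itpr2 and Asph, and mutants M2 and M3 had the lowest levels of Itpr2. Mutant M2 also had the lowest Ryr2, Trdn, Asph and Jph1 and the highest Casq1. Long transcripts in general ran the same way. Over 776 genes with transcripts above 8 kb, the median log2 deviation from the gene mean was 0.03 in mutant F1 and 0.04 in M1, -0.09 in F2, -0.08 in F3, -0.28 in M2 and -0.27 in M3, and it was 0.12 to 0.22 in the control mice. Ttn, the giant protein of the sarcomere, had 90195 CPM in mutant F1 and 81718 in M1, within the control range of 63169 to 106625, and 27143 to 42792 in the other 4. Over all tested genes with a known length, the median log2 fold change was -0.296 for transcripts above 8 kb, of which 15.6% were called lower, and 0.259 for those under 1 kb, of which 5.05% were.

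**Figure D4:**
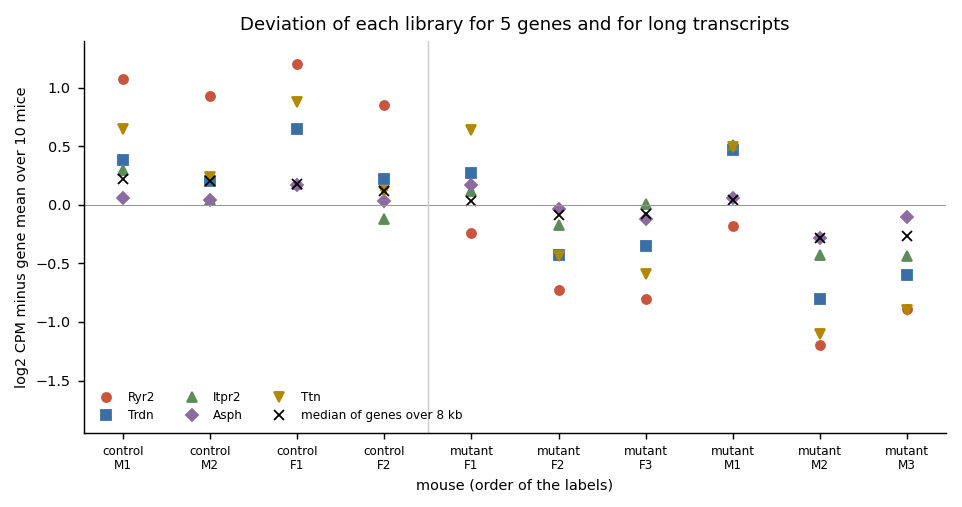
Log2 CPM of Ryr2, Trdn, Itpr2, Asph and Ttn in each library minus the gene's mean over the 10 mice, with crosses for the median of the genes whose transcripts exceed 8 kb. Mutants F1 and M1 are the highest of the 6 mutant mice for each of the 5 genes and for the crosses, and the crosses run from -0.28 to 0.22 while Ryr2 runs from -1.20 to 1.20.

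Because Ryr2 has the longest transcript of the members, each library's trend on transcript length was removed and the fit repeated. The log2 fold change of Ryr2 was then -1.26 (edgeR adjusted p = 9.56e-06), that of Casq1 3.16 (1.46e-05), that of Casq2 0.72 (0.000162) and that of Hrc -0.57 (0.00490), and all 4 kept their direction. Itpr2, the second longest, changed sign to 0.18 (edgeR adjusted p = 0.287), as did Asph, to 0.06 (edgeR adjusted p = 0.651), and Trdn was at -0.48 (edgeR adjusted p = 0.0944). With mutants M2 and M3 left out together, an alternative chosen after the data were seen, Ryr2 was at -1.47 (edgeR adjusted p = 9.43e-05), Casq1 at 3.09 and Casq2 at 0.77. The part that transcript length has in these values beyond this correction was not tested.

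Of 29 other genes of calcium release and uptake, 25 were tested, and 3 were called lower and 2 higher. By adjusted p alone 6 were lower and 7 higher, and their median log2 fold change was 0.11. The background of these counts is that of the members, 7.16% of all tested genes for the calls lower and 8.50% for the calls higher, and 15.0% and 16.3% for lower and higher by adjusted p alone.

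Of the 5 genes called, 3 take part in the refilling of the store. Atp2a2, which encodes the SERCA2 pump that returns calcium to the reticulum, was at 13066 to 16181 CPM in the control mice and at 5466 to 8036 CPM in the mutant mice, and its log2 fold change was -1.04 (standard error 0.14, edgeR adjusted p = 0.000152). Sln, which encodes sarcolipin, an inhibitor of the pump, went from 1625 to 2161 CPM down to 643 to 1139 CPM (log2 fold change -0.98, standard error 0.15, edgeR adjusted p = 0.000264). Pln, which encodes phospholamban, another inhibitor of the pump, was higher, with 1439 to 1776 CPM in the control mice and 2475 to 3766 CPM in the mutant mice (log2 fold change 0.95, standard error 0.14, edgeR adjusted p = 0.000232). In all 3 genes the groups did not overlap. Of the 25 tested genes of calcium release and uptake, 5 had every mutant mouse below every control mouse. Another 5 had every mutant mouse above every control mouse. The shares of all tested genes were 11.0% below and 11.7% above. Srl, which encodes the luminal protein sarcalumenin, was higher by adjusted p at a log2 fold change of 0.52 (edgeR adjusted p = 0.00301), under the fold needed for a call, and Slc8a1, the sodium-calcium exchanger, was at -0.13 (edgeR adjusted p = 0.370).

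Among 13 regulators of the release channel, 1 was called lower and 0 higher, beside 7.16% and 8.50% of all tested genes. Akap6, which encodes the anchoring protein mAKAP that brings kinase A to the ryanodine receptor, was at 701 to 854 CPM in the control mice and at 358 to 658 CPM in the mutant mice, a log2 fold change of -0.61 (standard error 0.15, edgeR adjusted p = 0.00864). This call did not hold with the trend on transcript length removed, where it was -0.25 (edgeR adjusted p = 0.101). It also missed the 1.5-fold limit, with log2 fold changes from -0.58 to -0.53, when control F1 or mutant F3, M2 or M3 was left out, and likewise with the GC trend removed (-0.57) and with mutants M2 and M3 left out together (-0.47). With the mice labelled male only, Akap6 was at -0.60 with an edgeR adjusted p of 0.138. Camk2d, the kinase CaMKII delta that phosphorylates the channel, was lower at -0.44 (edgeR adjusted p = 0.00285), and so was Dhrs7c, at -0.53 (edgeR adjusted p = 0.00876), both under the fold needed. Calm3 at 0.56, which encodes calmodulin, and Prkaca at 0.37, the catalytic subunit of kinase A, were higher by adjusted p and likewise not called. Leaving out 1 library carried Calm3 over the 1.5-fold limit (0.59 without control F1 or without mutant F1, 0.60 without mutant F3) and Dhrs7c as well (-0.61 without mutant F3). Dhrs7c was also called lower with the trend on transcript length removed, at -0.75 (edgeR adjusted p = 0.000603). With the mice labelled male only, Dhrs7c was called lower (-0.63), and Calm3 (0.73) and Prkaca (0.63) were called higher. A further 7 regulators (Fkbp1a, Calm2, Sri, S100a1, Speg, Tmem38a and Tmem38b) had log2 fold changes from -0.28 to 0.42 and an adjusted p above 0.05.

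Among the 4 tested genes of the trigger and the junction, Cav3, which encodes caveolin-3 of the muscle cell membrane, was called higher, with 30.6 to 42.0 CPM in the control mice and 60.5 to 94.2 CPM in the mutant mice (log2 fold change 1.06, standard error 0.13, edgeR adjusted p = 5.54e-05). Cacnb2, a subunit of the L-type channel, was lower by adjusted p at -0.35 (edgeR adjusted p = 0.0185) and Bin1, which shapes the membrane tubules that carry that channel, was higher at 0.53 (edgeR adjusted p = 0.0273), both under the fold needed. Bin1 passed that limit without control M2 (0.65) and without mutant F1 (0.60). Cacna1c, the pore of the L-type channel, was at 0.26 (edgeR adjusted p = 0.0859). Jph3, Jph4 and Jsrp1 had too few reads to be tested, with at most 12 in any library. Jsrp1, a protein of the junctional reticulum, had 1 to 3 reads in the control mice and 1 to 12 in the mutant mice, of which 5 had more than every control mouse. In the fit without the expression filter it was called higher (edgeR adjusted p = 0.0180), with all control mice at or under the 3 reads taken as the limit of detection.

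None of the 3 other release channels that could be tested passed the adjusted p, with log2 fold changes of -0.51 for Ryr3, -0.13 for Itpr1 and 0.05 for Itpr3. Ryr1, the ryanodine receptor of skeletal muscle, had 3 reads or fewer in every library. Ryr3, a ryanodine receptor known from brain and smooth muscle, had 196 to 379 CPM in the control mice and 97.3 to 315 CPM in the mutant mice and varied widely within each group. Without mutant F1, Ryr3 was called lower, with a log2 fold change of -0.70 (edgeR adjusted p = 0.0401), as it was with the mice labelled male only (-1.24, edgeR adjusted p = 0.0229). It was at -0.12 with the trend on transcript length removed (edgeR adjusted p = 0.743), and the mice labelled female alone gave 0.17. Both fits to 1 labelled sex set control and mutant libraries with unlike Xist reads against each other.

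**Figure D5:**
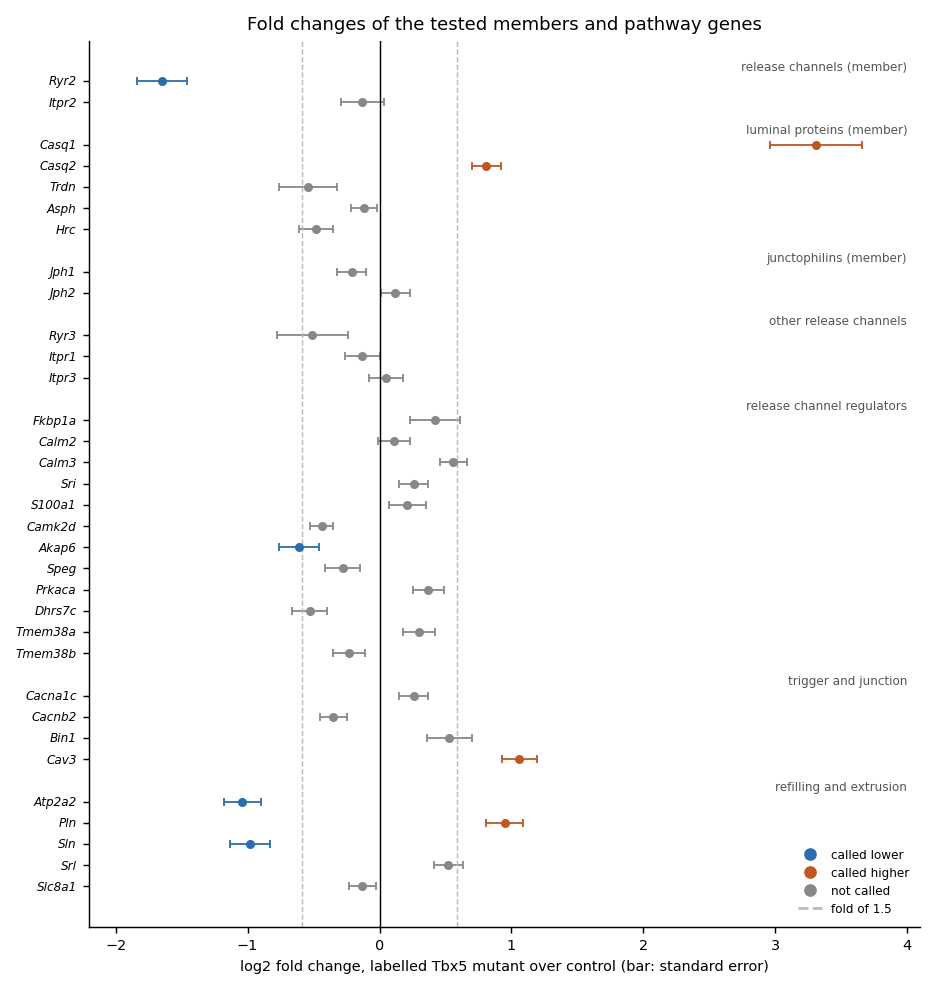
Log2 fold change of each tested member and of 24 tested pathway genes, mutant mice over control mice, with its standard error. Blue marks genes called lower, orange genes called higher and grey genes not called, and dashed lines mark a fold of 1.5. Ryr2 lies at -1.65 and Casq1 at 3.31, the ends of the plot on either side.

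Members, pathway genes and cell type markers were left out of a search for the genes whose levels ran most like those of Ryr2. Over the 10 libraries the closest 5 were Rabgap1l, Appl2, Arfgef1, Sytl2 and Gm9899, out of the 12947 other tested genes with reads in every library. Likeness was the mean absolute difference in log2 CPM after centring each gene on its mean, and it was 0.0907 for Rabgap1l and 0.174 for Gm9899, the fifth. Rabgap1l had 334 to 443 CPM in the control mice and 94.4 to 186 CPM in the mutant mice. All 5 had lower levels in the mutant mice, with log2 fold changes from -1.67 to -1.43, as the measure itself requires of a gene like Ryr2. Their transcripts have 3377 to 6978 bases, all shorter than that of Ryr2.

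Markers of the cells that a right atrium holds were measured in the same libraries, since in bulk tissue fewer cells of a type and less RNA per cell cannot be told apart. Of 8 heart muscle markers 1 was called lower, Myl7, the regulatory light chain of atrial myosin, which went from 5226 to 7556 CPM down to 738 to 1306 CPM, and 2 were called higher, Tnnt2 and Actc1. The heart muscle genes Myh6 (log2 fold change 0.10, edgeR adjusted p = 0.711) and Tnni3 (0.03, adjusted p = 0.868) did not pass the test. By adjusted p alone, Actn2 was higher (0.33, edgeR adjusted p = 0.0263) and Myl4 was lower (-0.44, edgeR adjusted p = 0.0217), both under the fold needed for a call. The summed level of the list was 112721 to 166915 CPM in the control mice and 76954 to 143991 CPM in the mutant mice. Of these sums, Ttn alone had 63169 to 106625 CPM and 27143 to 90195 CPM (log2 fold change -0.67, edgeR adjusted p = 0.146). Of 3 ventricular markers, Myl2 and Myl3 were called higher and Irx4 was at or under 3 reads in all libraries. Their summed level was 35.0 to 57.7 CPM and 603 to 844 CPM. Myl3 made up most of these sums, at 33.3 to 53.6 CPM in the control mice and 586 to 826 CPM in the mutant mice. Myl2 was at 1.71 to 6.63 CPM and 6.51 to 33.7 CPM, and its groups overlapped. Smooth muscle markers (2 of 4 called higher, Tagln and Acta2, sum 98.9 to 150.2 against 159 to 583 CPM) and leukocyte markers (3 of 4 higher, sum 287 to 482 against 451 to 701 CPM) were higher in part. Of 5 fibroblast markers 2 were called higher, Col1a1 and Col1a2 (sum 2635 to 3266 against 3209 to 4416 CPM). The other fibroblast markers were not called: Pdgfra went the other way (log2 fold change -0.4, edgeR adjusted p = 0.0152), Dcn was at -0.01 and Lum at 0.45. None of 4 endothelial markers was called (sum 775 to 1014 against 859.5 to 994 CPM), and 2 of 3 markers of the sinoatrial node, Hcn4 and Tbx3, were called lower (sum 7.00 to 22.3 against 5.66 to 10.1 CPM). The 3 adipocyte markers had too few reads to be tested (sum 0.470 to 4.14 against 0 to 20.4 CPM). Beside the counts of markers called, 7.16% of all tested genes were called lower and 8.50% higher. The part of these cell types in the values of Ryr2, Casq1 and Casq2 was not tested.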

How the data were processed

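The members and gene lists were chosen with earlier results of these data known, and they give no independent support to a pattern seen before.

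The authors deposited 1 table for the 10 libraries. It holds the authors' counts of reads per gene as deposited, whole numbers without normalization, and a signal per gene and library, which is the count divided by 1 size factor per library. Its other columns are the authors' own comparison of the groups, with a log2 fold change and its standard error, a test score, a p-value with its adjusted form and the fold change as a ratio, all as deposited, and none of these was used. The submitters' processing notes name FastQC, TopHat2 2.0.11, featureCounts, DESeq2 and mm10, with no role or order. The annotation and the strand setting of the counting are not given in the sources used here. The labels describe a kit for mRNA as well as total RNA depleted of ribosomal RNA.

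Counts were fitted with edgeR 4.0.16 in R 4.3.3 over all 10 libraries without covariates, after its expression filter and TMM scaling, with the quasi-likelihood test and Benjamini-Hochberg adjustment over all 13084 genes tested. The prior count was 0.125. A call needed an adjusted p under 0.05, a fold over 1.5 and a control mean of the authors' normalized signal over 1, as in the study's methods. The standard error is the log2 fold change divided by the root of its F statistic. For single members the mean log2 CPM was set against all 210 splits in an exact permutation test (two-sided), whose p cannot go below 0.00952. The p-values measure the spread between these mice. Ratios used the raw counts of 2 genes within a library.

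Lengths came from the longest transcript per gene in GENCODE M21 (GRCm38) and were matched for 12943 of the tested genes, and promoter sequences came from RefSeq (GRCm38.p6). Length and GC trends of each library were removed with a lowess curve (span 0.4) as offsets. Alternatives included DESeq2 1.42.0, limma 3.58.1 with a trend, and other scalings, filters and thresholds. Further ones were labelled sex as a covariate, a replicate block, each labelled sex alone and each library left out in turn. The fits that use labelled sex take the label, which the Xist and Ddx3y reads go against in the control mice. Counts of 3 reads or fewer in a library were taken as the limit of detection, between 0.40 and 0.817 CPM, and cover counting error only. Within groups, all 21 pairs of libraries differed beyond counting noise (chi-square per degree of freedom of 3.78 or more), so each counts as 1 replicate. The genes named are the members, the pathway lists, Tbx5, Rn45s, Xist, Ddx3y, the genes most like Ryr2 and markers where a group of them moved. D830005E20Rik was named after its values were seen. One regulator and the nerve markers are not reported here by name or value, and the counts over the lists include that regulator.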

Additional observations from a re-analysis of the deposited data

Results flagged for a closer look

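The level of Jph4 in control M2 stood apart from the other control mice, at 0 CPM against 0.135 CPM in the nearest, which is 0 reads against 1, and values at this depth have no order. The share of Rn45s was 38.9% in mutant M3 against 0.582% in the nearest mouse of its group. In a search of 100 groups of values for a mouse that stands alone, these 2 were set apart, and chance gives about 5. For Fkbp1b the log2 ratio of mean CPM, mutant over control, was -0.98 in the mice labelled male and 1.21 in the mice labelled female, every mouse moving the way of its labelled sex. The difference was not tested, it rests on 3 to 14 reads per library, and Xist goes against the sex labels of the control mice.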

How the results depend on the processing

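Over 27 alternatives the members Ryr2 (log2 fold change -1.77 to -1.23), Casq1 (2.53 to 4.5), Casq2 (0.63 to 0.99), Jph1 and Jph2 stayed on the same side of 0 and of the 0.05 limit on the adjusted p of edgeR, limma or DESeq2. Asph, at -0.12, reversed to 0.06 with the transcript length trend removed and to 0.07 with the replicate block as well. Itpr2, at -0.13, reversed to 0.18 and 0.21 under the same 2 alternatives and to 0.04 with mutants M2 and M3 left out together, which was chosen after the data were seen. Hrc missed the threshold under total count scaling (adjusted p = 0.0832, edgeR), without control F1 and with the mice labelled male only (-0.13, adjusted p = 0.599), against a range of 0.00226 to 0.599. Trdn passed it under limma with a trend (-0.60, adjusted p = 0.0466), with the GC trend removed (-0.46, adjusted p = 0.0427, edgeR) and without mutant F1 or M1, against a range of 0.00946 to 0.351. All 110 recomputed ratios moved by less than 1 SD between replicates.

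Members called lower numbered 2 with limma and a trend (Ryr2 and Trdn), with the mice labelled female only (Ryr2 and Hrc) and with no fold threshold, and 1 to 2 with each replicate left out. Members called higher numbered 1 with a fold over 2, since Casq2 is under it. Pathway genes called lower numbered 1 with a fold over 2, 6 with none and 2 to 4 with each replicate left out, and those called higher 1, 7 and 2 to 4. The latter numbered 3 without the expression filter, where Jsrp1 passed, 4 with the mice labelled male only and 4 with the transcript length trend removed, where Srl (0.62) and Cacna1c (0.61) passed. Over all genes, 2049 were called, against 1284 (631 lower, 653 higher) in a fit of the 9983 genes with a mean count of at least 50, 906 (367 lower, 539 higher) with a fold over 2, 4096 (1967 lower, 2129 higher) with none, and 1807 to 2205 (824 to 1076 lower, 983 to 1164 higher) with each replicate left out. The cause was not tested, apart from the fold thresholds, which act by their construction. The mean count filter acts that way in part, since the genes it removed could not be called.

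Same-numbered mice are different animals. The mean correlation of their deviations was -0.00712 in 4 such pairs, against 0.00129 in 20 pairs of unlike numbers. Deviations were taken from the mean of each group and the pairs are few, so these means cannot decide whether such mice shared a litter or a day. A fit with the replicate block called 1957 genes (903 lower, 1054 higher), and in it Ryr2 was at -1.60, Casq1 at 3.47 and Casq2 at 0.80. With the block, Hrc had an adjusted p of 0.0751 (edgeR), Akap6 lost its call (-0.55, a fold under 1.5) and Dhrs7c was called lower (-0.62). Depth limits Fkbp1b, Ryr1, Jph3, Jph4 and Jsrp1, which had at most 14 reads in any library.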
